A study of Mus musculus with 25 samples.

Results

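The passage from G1 into S phase was followed through 10 genes in pituitary RNA-seq of 25 sh*Rb* mice. They are the D-type cyclins *Ccnd1*, *Ccnd2* and *Ccnd3*, their kinases *Cdk4* and *Cdk6*, the E-type cyclins *Ccne1* and *Ccne2*, their kinase *Cdk2*, the A-type cyclin *Ccna2*, and the phosphatase *Cdc25a*. They were taken by symbol. All 10 were present in both expression tables, of 15315 genes in the long-term table and 14007 in the short-term table. Every mouse carried a Rosa26-rtTA transgene and a Col1a1-sh*Rb* allele, so that doxycycline (dox) in the drinking water induced a GFP-linked shRNA directed at *Rb*. The Rosa26 locus is active in most cell types, and the knock-down was therefore not limited to pituitary cells. The long-term experiment held 3 female mice after 6 weeks on dox (6w+dox), 2 female and 2 male mice after 12 weeks on dox (12w+dox), and 3 female and 2 male mice given dox for 6 weeks and then kept off it for 6 weeks (12w-res). The short-term experiment held 3 male mice after 16 weeks on dox (16w +dox), 4 female mice 1 day after dox removal (1d -dox), 3 male mice after 3 days (3d -dox) and 3 female mice after 5 days (5d -dox). The labels give no age, and no mouse without dox or without the shRNA is among the 25.

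D-type cyclins bind CDK4 and CDK6 and phosphorylate RB early in G1, which loosens its hold on E2F transcription factors. E2F in turn drives genes of the next steps, among them the E-type cyclins and cyclin A, whose partner CDK2 completes RB phosphorylation and starts DNA replication. CDC25A removes inhibitory phosphates from CDK2 and is itself a known E2F target. Loss of *Rb* in mice is known to produce tumors of the pituitary intermediate lobe, whose melanotrophs make *Pomc*.

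The levels are given as FPM, reads scaled by size factors to a common library size. The long-term libraries were made with poly(A) enrichment and held 19066053 to 28968476 reads on genes, and the short-term libraries were made by ribosomal RNA depletion and held 9573101 to 13036900. Levels were therefore compared only within an experiment. *Rb1*, the target of the shRNA, was at 1.86 to 5.09 FPM in 6w+dox, 2.42 to 4.05 FPM in 12w+dox and 16.1 to 20.3 FPM in 12w-res, which matched the labels. In the short-term mice it was at 3.47 to 4.89 FPM in 16w +dox and 4.92 to 5.38 FPM in 5d -dox, while GFP, the reporter, was at 1025 to 1360.4 FPM in 16w +dox and 9.34 to 15.2 FPM in 5d -dox. *Pomc* took 12.9% to 43.2% of the reads on genes in the long-term libraries and 4.96% to 17.9% in the short-term libraries, and each of the 10 genes had at least 13 reads in every mouse. The tissue was sequenced whole, so fewer cells of a type and less RNA per cell cannot be told apart.

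Promoter sequences bear on these genes because several of them are known E2F targets. A window of 250 bases before to 50 after the start was found for 6 of the 10 genes in RefSeq (GRCm38.p6); *Ccnd1*, *Ccnd2*, *Ccne2* and *Ccna2* had no entry. An E2F motif was searched on both strands as TTTCCCGC, TTTGGCGC, TTTCGCGC or TTTGCCGC, and again without its first T. The 8-letter form was in 2.26% of all 32851 windows of this length, and the 7-letter form, which any 8-letter match also contains, was in 9.57%. *Cdk2* and *Cdc25a* held an 8-letter match, 140 and 67 bases before the start, and no match of either form was in the windows of *Ccne1*, *Cdk4*, *Cdk6* or *Ccnd3*. Only these exact letters were searched, so a gene without a match may still have an E2F site of other letters or outside the window. The windows of *Cdk2*, *Cdc25a* and *Ccne1* are shown because they set genes that fell together or stayed level after RB came back beside the letters in front of them. Capitals mark every 7- or 8-letter match, and the windows lie at chr10:128705002-128705301 (minus strand), chr9:109875329-109875628 (plus strand) and chr7:38107441-38107740 (minus strand).
Cdk2: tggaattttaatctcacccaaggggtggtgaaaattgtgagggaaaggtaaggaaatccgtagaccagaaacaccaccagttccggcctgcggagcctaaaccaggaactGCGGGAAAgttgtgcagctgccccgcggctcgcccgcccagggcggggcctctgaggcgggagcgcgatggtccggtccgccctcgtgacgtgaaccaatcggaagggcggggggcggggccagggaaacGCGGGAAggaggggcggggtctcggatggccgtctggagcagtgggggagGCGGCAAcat
Cdc25a: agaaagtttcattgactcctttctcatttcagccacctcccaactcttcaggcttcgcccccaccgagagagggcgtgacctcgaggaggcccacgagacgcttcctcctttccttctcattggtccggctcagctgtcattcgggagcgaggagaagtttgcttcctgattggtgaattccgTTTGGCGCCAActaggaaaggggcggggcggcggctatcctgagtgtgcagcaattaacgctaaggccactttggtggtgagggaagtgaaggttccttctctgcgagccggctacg
Ccne1: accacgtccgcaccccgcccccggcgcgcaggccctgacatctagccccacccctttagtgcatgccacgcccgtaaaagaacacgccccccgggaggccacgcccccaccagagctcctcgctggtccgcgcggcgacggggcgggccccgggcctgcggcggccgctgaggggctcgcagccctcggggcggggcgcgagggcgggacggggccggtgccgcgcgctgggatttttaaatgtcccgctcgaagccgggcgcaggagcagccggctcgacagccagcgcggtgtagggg
Of these, *Cdk2* and *Ccne1* were lower in 12w-res than in both dox groups and *Cdc25a*, at the size-factor scaling, did not pass the test in any comparison.

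Per kilobase of transcript, *Cdk4* was the most abundant of the 10 genes in every long-term mouse and *Ccnd3* the next. The length used was that of each gene's longest protein-coding transcript, from 2.0 kb for *Ccne1* to 11.5 kb for *Cdk6*. The order of the genes, and all ratios per kb below, depend on that choice. In 6w+dox the level of *Cdk4* was 106 ± 16.0 FPM per kb (SD, n = 3) and that of *Ccnd3* 42.2 ± 10.8 FPM per kb. *Ccnd1*, *Cdc25a*, *Ccnd2*, *Ccna2* and *Cdk2* followed with means of 8.19 to 11.4 FPM per kb and ranges that overlapped between neighbours. *Ccne1* stood at 6.78 ± 0.83 FPM per kb, and *Ccne2* and *Cdk6* were lowest, at 1.41 ± 0.711 and 1.04 ± 0.0726 FPM per kb. In 12w+dox *Ccna2* was the third of the 10, at 12.0 ± 2.59 FPM per kb, although its range overlapped that of *Cdc25a*. In 12w-res it was the ninth, at 0.954 ± 0.303 FPM per kb, and only *Ccne2* was lower. In that group *Cdc25a*, *Ccnd1* and *Ccnd2* took the places behind *Ccnd3*, with means of 5.18 to 10.3 FPM per kb.

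**Figure D1:**
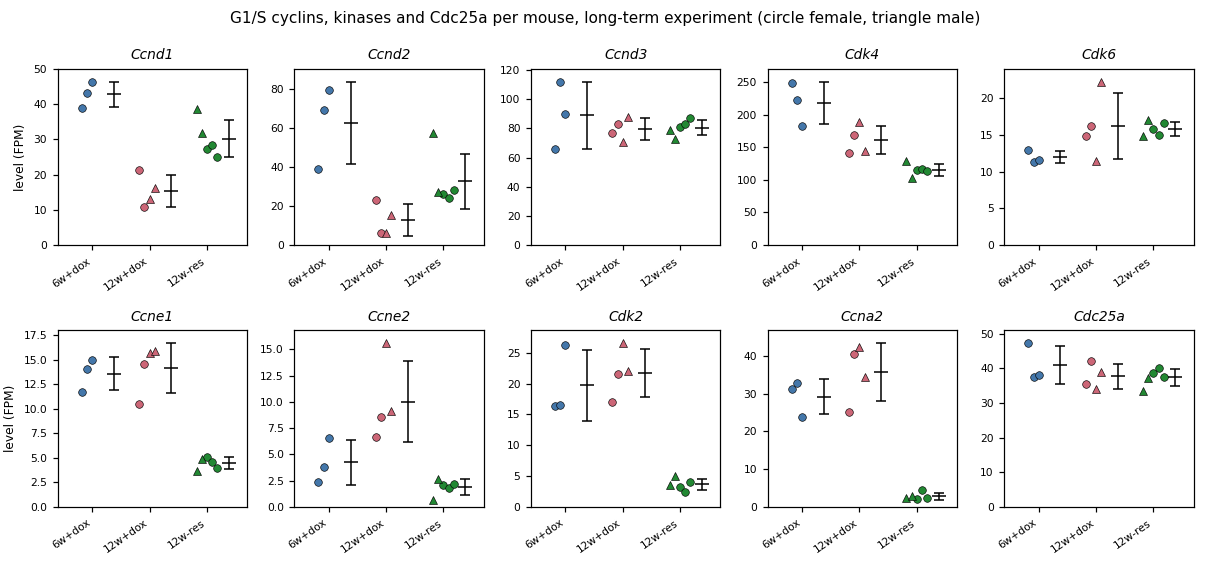
Level in FPM (vertical axis, linear from 0) of each of the 10 genes in the 12 long-term mice; circles are female and triangles male mice, and the bar beside each group is the mean ± SD. Ccna2, Cdk2 and Ccne1 of the 5 12w-res mice lie below all 7 mice on dox, Ccnd1 and Ccnd2 are lowest in 12w+dox, and Ccnd3 and Cdc25a overlap in all groups.

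The first comparison, of 12w+dox with 6w+dox, asks how the genes changed as tumors grew on continuous dox. Of the 10 genes, 4 passed the test. *Ccnd1*, *Ccnd2* and *Cdk4* were lower at 12 weeks and *Ccne2* was higher, while *Ccna2*, *Cdk2*, *Ccne1*, *Ccnd3*, *Cdk6* and *Cdc25a* did not pass. Of all genes tested, 10.4% were called higher and 12% lower in this comparison, so that 1 higher gene of 10 is a share near the background and 3 lower genes of 10 lie above it. The groups did not overlap for 3 genes (*Ccne2* higher, *Ccnd1* and *Ccnd2* lower), against 25.2% of all genes, and 3 genes changed by more than 1 on the log2 scale, against 7.2%. The median log2 fold change was -0.033 over the 10 genes and -0.0063 over all genes.

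The second comparison, of 12w-res with 12w+dox, asks how the genes stood in mice of equal total time with and without RB re-expression. Of the 10 genes, 7 passed the test. *Ccna2*, *Cdk2*, *Ccne2*, *Ccne1* and *Cdk4* were lower in 12w-res and *Ccnd1* and *Ccnd2* were higher, while *Ccnd3*, *Cdk6* and *Cdc25a* did not pass. Of all genes, 19.4% were called higher and 18.3% lower. The 7 genes were also those whose groups did not overlap, against 34.5% of all genes, and 5 genes passed with a change of more than 1 on the log2 scale, against 11.3%. The median log2 fold change was -0.24 over the 10 genes and -0.0040 over all genes.

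The last long-term comparison, of 12w-res with 6w+dox, asks how the rescued mice stood against the state at which their dox was removed. The same 5 genes as in the second comparison were lower, *Ccna2*, *Cdk2*, *Ccne1*, *Ccne2* and *Cdk4*, and 0 were higher. Of all genes, 17% were called higher and 16.8% lower. The groups did not overlap for 6 genes, *Cdk6* being higher and *Ccna2*, *Cdk2*, *Ccne1*, *Cdk4* and *Ccnd1* lower, against 32.7% of all genes, and 3 passed with a change of more than 1 on the log2 scale, against 11.6%. This comparison and the second share the 12w-res mice. The median log2 fold change was -0.93 over the 10 genes and -0.021 over all genes. A count of calls over few genes moves with the background, and the sizes of the changes are therefore given gene by gene.

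*Ccna2* (chr3:36564865-36573038), which encodes cyclin A2, the partner of CDK2 and later CDK1 in S phase and G2, showed the largest change of the 10 in 12w-res. It was at 31.1, 32.8 and 23.8 FPM in the 6w+dox mice, at 25.2, 40.5, 42.3 and 34.5 FPM in the 12w+dox mice, and at 2.44, 2.80, 2.09, 4.37 and 2.43 FPM in the 12w-res mice. Every rescued mouse lay below every mouse on dox, and the 12w-res mean was 7.94% of the 12w+dox mean. On the log2 scale *Ccna2* was lower by -3.45 (SE 0.20, limma adjusted p = 3.05e-08) against 12w+dox and by -3.18 (SE 0.22, adjusted p = 1.65e-07) against 6w+dox. Between 6 and 12 weeks on dox the difference was 0.27 (95% interval -0.23 to 0.76), within the spread of the mice.

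*Cdk2* (chr10:128697938-128705051), the kinase of cyclins E and A, followed the same order. Its level was 16.3, 16.5 and 26.3 FPM in 6w+dox and 16.96, 21.5, 26.5 and 22.1 FPM in 12w+dox. In 12w-res it was 3.48, 5.02, 3.28, 2.48 and 3.98 FPM, again with no overlap with either dox group. The log2 fold change was -2.44 (SE 0.20, limma adjusted p = 8.14e-07) against 12w+dox and -2.28 (SE 0.22, adjusted p = 4.41e-06) against 6w+dox. The change from 6 to 12 weeks on dox was 0.16 (95% interval -0.34 to 0.66).

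The E-type cyclins, which activate CDK2 at the end of G1, were both lower after rescue but differed in their course on dox. *Ccne1* (chr7:38097984-38107490) was at 11.7, 14.1 and 14.9 FPM in 6w+dox, at 10.5, 14.5, 15.6 and 15.9 FPM in 12w+dox, and at 3.64, 4.91, 5.05, 4.61 and 3.98 FPM in 12w-res. Its dox groups overlapped, with a log2 fold change of 0.048 (95% interval -0.35 to 0.44), and the rescued mice lay below both. It was lower in 12w-res by -1.56 on the log2 scale (SE 0.16, limma adjusted p = 7.14e-06) against 12w+dox and by -1.51 (SE 0.18, adjusted p = 2.45e-05) against 6w+dox. *Ccne2* (chr4:11190433-11204779) was at 2.39, 3.79 and 6.58 FPM in 6w+dox and at 6.66, 8.60, 15.6 and 9.16 FPM in 12w+dox. The highest 6w+dox mouse and the lowest 12w+dox mouse were 0.0827 FPM apart, so that the groups touched without overlap. The mean was 2.35 times as high at 12 weeks, a log2 fold change of 1.17 (SE 0.37, limma adjusted p = 0.0358). This call was lost with edgeR (adjusted p = 0.0507), with sex as a covariate (adjusted p = 0.0786), and without any one of 5 mice (12w+dox replicates 2, 3 and 4, 6w+dox replicates 1 and 2). In 12w-res *Ccne2* was at 0.676, 2.64, 2.09, 1.83 and 2.16 FPM, on 13 to 50 reads a mouse. It was lower by -2.15 on the log2 scale (SE 0.33, limma adjusted p = 1.91e-04) than in 12w+dox. Against 6w+dox the groups overlapped and the change of -0.97 (SE 0.35, adjusted p = 0.0471) was close to the threshold. That call was lost without any one of 8 mice, among them 12w-res replicate 1, the lowest (adjusted p = 0.0843), and 6w+dox replicate 3, the highest of its group (adjusted p = 0.192), and its adjusted p ran from 0.0144 to 0.192 over the alternatives. The call was also lost with sex as a covariate (adjusted p = 0.0652), in female mice only (adjusted p = 0.0838) and with only both groups in the fit (adjusted p = 0.0615).

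The kinases of the D-type cyclins behaved differently from each other. *Cdk4* (chr10:127063535-127067288) was at 248, 222 and 183 FPM in 6w+dox, at 142, 169, 188 and 145 FPM in 12w+dox, and at 129, 102, 114, 116 and 114 FPM in 12w-res. The rescued mice lay below all mice on dox, and the dox groups overlapped in 1 mouse each. The change was smaller than that of the CDK2 genes. It was -0.47 on the log2 scale (SE 0.12, limma adjusted p = 0.00642) against 12w+dox and -0.91 (SE 0.13, adjusted p = 1.33e-04) against 6w+dox, with -0.43 (SE 0.14, adjusted p = 0.0340) from 6 to 12 weeks on dox. The last of these 3 calls was lost with the replicate block (adjusted p = 0.126) and with sex as a covariate (adjusted p = 0.0591), with totals of reads (-0.11, adjusted p = 0.517), and without any one of 5 mice (12w+dox replicates 1, 2 and 4, 6w+dox replicates 1 and 2). *Cdk4* overlaps the end of *Tspan31* in RefSeq and the use of strand in counting is not given in the sources used here. *Tspan31* had a log2 fold change of -0.52 (adjusted p = 0.0230) from 6 to 12 weeks on dox and of 0.69 (adjusted p = 0.00104) in 12w-res against 12w+dox, where *Cdk4* was lower. *Cdk6* (chr5:3341004-3531008) was at 12.9, 11.4 and 11.6 FPM in 6w+dox, at 14.9, 16.2, 11.4 and 22.3 FPM in 12w+dox, and at 14.8, 17.01, 15.8, 15.1 and 16.6 FPM in 12w-res. The rescued mice fell inside the range of 12w+dox, with a log2 fold change of 0.0073 (95% interval -0.33 to 0.35). All 5 lay above the 6w+dox mice, with a log2 fold change of 0.39 that did not pass the test (adjusted p = 0.0967). It passed with only both groups in the fit (adjusted p = 0.0353) and without 12w+dox replicate 3 or 4 (adjusted p = 0.0498 and 0.0479). From 6 to 12 weeks on dox the change of 0.38 (adjusted p = 0.141) passed with totals of reads (0.70, adjusted p = 0.0262) and without 12w+dox replicate 3 (0.53, adjusted p = 0.0347).

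Among the D-type cyclins, *Ccnd1* and *Ccnd2* were lowest in 12w+dox and *Ccnd3* was level. *Ccnd1* (chr7:144929931-144939831) was at 39.0, 43.1 and 46.2 FPM in 6w+dox, at 21.2, 10.8, 13.1 and 16.2 FPM in 12w+dox, and at 38.7, 31.9, 27.2, 28.5 and 24.98 FPM in 12w-res. The 3 groups did not overlap, and the 12w-res mice stood between the others. The log2 fold change was -1.49 (SE 0.20, limma adjusted p = 4.44e-04) from 6 to 12 weeks on dox and 0.99 (SE 0.18, adjusted p = 7.01e-04) in 12w-res against 12w+dox. Against 6w+dox it was -0.51 (SE 0.19, adjusted p = 0.0560), which did not pass, although it passed with sex as a covariate (-0.58, adjusted p = 0.0443), in female mice only (-0.66, adjusted p = 0.0488), with DESeq2 (adjusted p = 0.0482), with only both groups in the fit (adjusted p = 0.0222), with totals of reads (-0.83, adjusted p = 0.0131) and without 12w+dox replicate 1 or 2 (adjusted p = 0.0282 and 0.0372). *Ccnd2* (chr6:127125162-127152188) was at 39.0, 69.4 and 79.8 FPM in 6w+dox, at 23.1, 6.32, 6.01 and 15.7 FPM in 12w+dox, and at 57.8, 27.4, 26.4, 24.0 and 28.5 FPM in 12w-res. All 12w+dox mice lay below all others, and the 12w+dox mean was 20.3% of the 6w+dox mean. The log2 fold change was -2.41 (SE 0.42, limma adjusted p = 0.00199) from 6 to 12 weeks on dox and 1.46 (SE 0.37, adjusted p = 0.00704) in 12w-res against 12w+dox. Without 12w-res replicate 1, at 57.8 FPM, the latter was 1.24 (adjusted p = 0.0163). Against 6w+dox *Ccnd2* was at -0.94 (SE 0.41, adjusted p = 0.0877), and without that mouse both genes passed as lower than in 6w+dox, *Ccnd1* at -0.60 (adjusted p = 0.0275) and *Ccnd2* at -1.17 (adjusted p = 0.0336). *Ccnd2* also passed there with only both groups in the fit (adjusted p = 0.0311) and with totals of reads (-1.27, adjusted p = 0.0380). It passed without 12w+dox replicate 1 as well (adjusted p = 0.0477). In the female mice alone neither rise in 12w-res passed, at 0.81 (adjusted p = 0.0503) for *Ccnd1* and 1.07 (adjusted p = 0.140) for *Ccnd2*. In 6w+dox replicate 1 both genes had 670 reads, and in every other mouse their counts differed.

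*Ccnd3* (chr17:47505051-47599689) was at 66.0, 112 and 89.6 FPM in 6w+dox, at 76.8, 82.7, 70.6 and 87.7 FPM in 12w+dox, and at 79.2, 72.7, 81.1, 83.1 and 86.9 FPM in 12w-res. All 3 groups overlapped. The 95% interval of its log2 fold change was -0.26 to 0.30 in 12w-res against 12w+dox and -0.46 to 0.18 from 6 to 12 weeks on dox. *Cdc25a* (chr9:109875518-109893895) was at 47.2, 37.6 and 38.001 FPM in 6w+dox, at 35.6, 42.2, 34.2 and 38.8 FPM in 12w+dox, and at 33.4, 37.3, 38.7, 40.2 and 37.4 FPM in 12w-res. Its groups also overlapped, and the interval in 12w-res against 12w+dox, -0.24 to 0.22, leaves out a change of the size seen for *Cdk2* or *Ccna2*. Scaling by totals of reads in place of size factors moved the median of all genes by -0.61 in this comparison. The totals include the reads of *Pomc*, which took 39.1% to 43.2% of the reads on genes in 12w-res and 12.9% to 23.0% in 12w+dox. On that scale *Ccnd3*, *Cdc25a* and *Cdk6* were at -0.63, -0.66 and -0.63, close to that median, and passed as lower (adjusted p = 0.00619, 2.15e-04 and 0.00935). *Ccnd1* and *Ccnd2* were at 0.34 and 0.83 and no longer passed, and *Ccna2*, *Cdk2*, *Ccne1*, *Ccne2* and *Cdk4* still passed.

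The summed endothelial markers and the summed hormone genes of other pituitary cells were lowest in 12w+dox without overlap, as *Ccnd1* and *Ccnd2* were. The mean sum of immune markers (65.3, 55.9 and 95.8 FPM in 6w+dox, 12w+dox and 12w-res) was also lowest in 12w+dox. So was that of melanotroph and corticotroph markers (232990, 148410 and 509626 FPM), but in both lists 12w+dox overlapped 6w+dox. Sums of stem and folliculostellate markers and of neural lobe markers were lower in 12w+dox than in 6w+dox (means 84.1 against 137 FPM and 13.3 against 93.8 FPM). In these lists 12w-res overlapped 12w+dox. The sum of fibroblast and mural markers was not lowest in 12w+dox, although 3 of those 6 markers passed as lower from 6 to 12 weeks on dox. The summed level of 5 endothelial markers (*Pecam1*, *Cdh5*, *Kdr*, *Egfl7* and *Plvap*) was 164 to 218 FPM in 6w+dox, 58.6 to 119 FPM in 12w+dox and 171 to 240 FPM in 12w-res, with 0 of the 5 at 0 in any mouse. Within 12w+dox, replicates 1 and 4 had the higher endothelial sums (119 and 103 FPM, against 58.6 and 69.1 FPM) and the higher levels of both cyclins. The same 2 mice also had the higher fibroblast and mural sums, 303 and 235 FPM against 166 and 125 FPM. In 12w-res, replicate 1 had the highest endothelial sum, 240 FPM, and the highest *Ccnd1* and *Ccnd2*. It also had the lowest fibroblast and mural sum of its group, 503 FPM, and the highest sum of other hormone genes, 34917 FPM. Of the 5 markers, 2 passed as lower from 6 to 12 weeks on dox and 4 passed as higher in 12w-res against 12w+dox. The summed level of 6 fibroblast and mural markers was 163 to 228 FPM, 125 to 303 FPM and 503 to 645 FPM in the same order of groups, and 6 of 6 passed as higher in 12w-res against 12w+dox. Of these 6, *Dcn*, *Lum* and *Pdgfra* passed as lower from 6 to 12 weeks on dox, with log2 fold changes of -1.62, -1.63 and -1.59. Sums of 6 hormone genes of other pituitary cells were 58624 to 94019 FPM, 1214 to 12977 FPM and 17292 to 34917 FPM. The part of these cells in the levels of *Ccnd1* and *Ccnd2* was not tested.

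**Figure D2:**
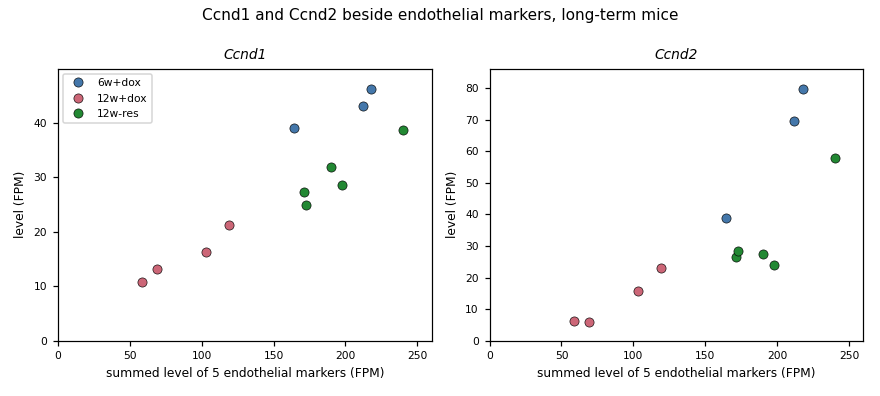
Ccnd1 (left) and Ccnd2 (right) in FPM against the summed FPM of 5 endothelial markers in the 12 long-term mice, 1 point a mouse, with both axes linear from 0. The 12w+dox mice, with endothelial sums of 58.6 to 119 FPM, sit at the lower left, and the mice of the other groups, with sums of 164 to 240 FPM, have higher levels of both cyclins.

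The balance among the genes within each library was described by ratios of FPM per kb, which do not depend on the scaling of a library. The summed E- and A-type cyclins stood at 0.293 ± 0.0573 of the summed D-type cyclins in 6w+dox (SD, n = 3), at 0.523 ± 0.156 in 12w+dox (n = 4) and at 0.0747 ± 0.0162 in 12w-res (n = 5). The 3 ranges were 0.257 to 0.359, 0.350 to 0.720 and 0.0504 to 0.0906, so that 12w-res was apart from both dox groups. The ratio of *Cdk2* to *Cdk4* was 0.0807 ± 0.0366, 0.115 ± 0.0126 and 0.0275 ± 0.00908 in the same order, again with 12w-res below both. *Cdk6* was 0.00990 ± 0.00123 of *Cdk4* in 6w+dox and 0.0247 ± 0.00344 in 12w-res, without overlap, with 12w+dox between them at 0.0185 ± 0.00686. *Ccnd3* made up 66.1 ± 3.69% of the D-type cyclin level in 6w+dox, 86.2 ± 4.85% in 12w+dox and 74.4 ± 5.26% in 12w-res. *Ccne2* was 0.203 ± 0.0817 of *Ccne1* in 6w+dox, 0.465 ± 0.132 in 12w+dox and 0.276 ± 0.0964 in 12w-res, where the 12w-res values lay below those of 12w+dox and overlapped those of 6w+dox.

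**Figure D3:**
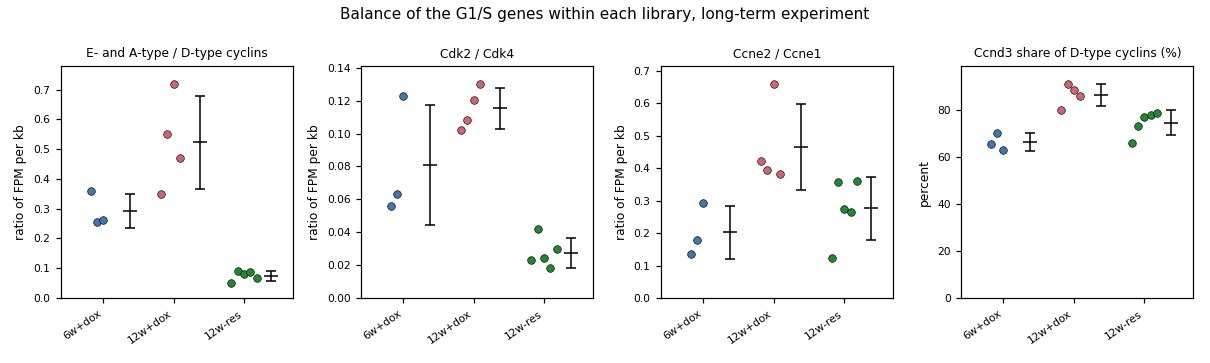
Ratios of FPM per kb within each long-term library, and the percent of the D-type cyclin level that Ccnd3 holds (last panel), with 1 point a mouse and the mean ± SD beside each group; axes are linear from 0. The ratio of E- and A-type to D-type cyclins is 0.0504 to 0.0906 in 12w-res and 0.257 to 0.720 in the mice on dox.

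Another 48 genes around RB, E2F and the cell cycle kinases were listed, of which some, such as *Ccnb1*, *Cdk1* and *Cdc25c*, act in G2 and mitosis. Of the 48, 35 were lower and 2 higher (*Rb1* and *Ccnh*) in 12w-res against 12w+dox, and 34 were lower and 4 higher against 6w+dox, beside the 18.3% and 16.8% of all genes called lower and the 19.4% and 17% called higher. Against both, 31 were called the same way, 30 of them lower and 1, *Rb1*, higher. The median log2 fold change of the 48 was -1.39 against 12w+dox and -1.38 against 6w+dox, beside -0.0040 and -0.021 over all genes. Among the roles, 10 of 10 replication genes such as *Mcm2*, *Pcna* and *Cdc6* were lower in 12w-res than in 12w+dox, as were 7 of 10 E2F and DP factors, 5 of 7 CDK inhibitors and both other CDC25 phosphatases, *Cdc25b* and *Cdc25c*. The other CDC25 genes thus passed where *Cdc25a* did not. The largest falls against 12w+dox among those called against both were *Ccnb1* (-3.51), *Cdk1* (-3.46) and *E2f7* (-3.41), and *Rb1* rose by 2.35. From 6 to 12 weeks on dox, 5 of the 48 were higher (*Rbl2*, *E2f2*, *E2f6*, *Tfdp2* and *Wee1*) and 2 lower (*Cdkn1c* and *Cks2*), where 10.4% and 12% of all genes were called higher and lower. The summed level of 4 proliferation markers was 283 to 417 FPM, 263 to 380 FPM and 18.5 to 27.2 FPM in 6w+dox, 12w+dox and 12w-res.

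For the 7 genes called in 12w-res against 12w+dox, the genes most like them in pattern were found by the root mean square difference of centred log2 values over all 25 mice, among 13517 genes of both tables. *Ccna2* was nearest to *Nuf2* (0.20) and *Hmmr* (0.20), where the median gene differed by 1.20. *Cdk2* was nearest to *Gsg2* (0.22) and *Chaf1a* (0.22), and *Ccne1* to *Tmpo* (0.17) and *Topbp1* (0.18). The 12w-res mice are among the 25, so the neighbours' own levels there are no separate evidence. *Ccne2* was nearest to *2610316D01Rik* (0.27) and *Mlxipl* (0.28), and *Cdk4* to *Cyth2* (0.091) and *Hnrnpl* (0.091). *Ccnd1* was nearest to *Antxr1* (0.23) and *Yap1* (0.25), and *Ccnd2* to *Aldh1a2* (0.38) and the endothelial marker *Plvap* (0.39).

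**Figure D4:**
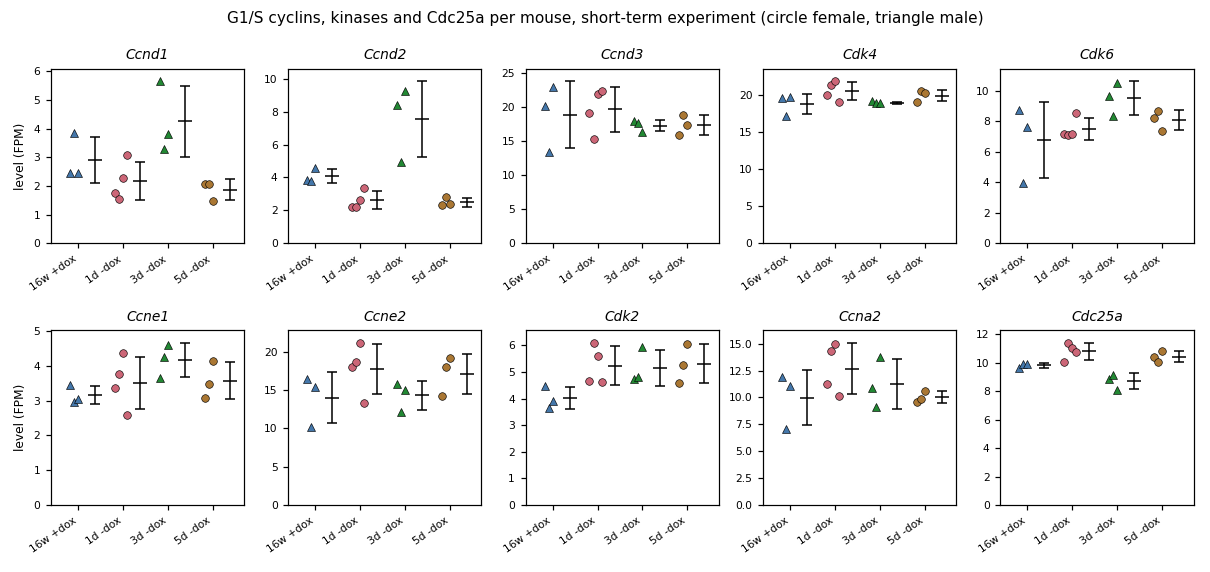
Level in FPM (vertical axis, linear from 0) of each of the 10 genes in the 13 short-term mice; circles are female and triangles male mice, and the bar beside each group is the mean ± SD. Ccnd2 is highest in the male 3d -dox mice, at 4.92 to 9.28 FPM, and Ccna2, Ccne2 and Ccne1 of the 5d -dox mice lie in or above the range of the 16w +dox mice.

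The short-term comparisons ask how soon after dox removal the genes changed. With limma 0 of the 10 genes passed the test at 1, 3 or 5 days against 16w +dox, or at 5 days against 1 day. At an unadjusted p under 0.05 there were 2, 4, 3 and 0, against 13.1%, 16.6%, 13.5% and 6.33% of all genes. Of all genes, 0.043% were called higher and 0.0573% lower at 1 day, 0.158% and 0.201% at 3 days, 0.337% and 0.172% at 5 days, and 0.00716% in each direction at 5 days against 1 day. The groups did not overlap for 3, 4, 4 and 0 of the 10 genes, against 11.2%, 21.6%, 19.3% and 7.8% of all genes. The 48 other pathway genes had 0 calls in each of the 4 comparisons. At 1 and 5 days the mice were female and the controls male, so that sex and days without dox cannot be told apart there, while 3d -dox and 16w +dox, and 5d -dox and 1d -dox, are of 1 sex.

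At 5 days the 5 genes that were lower in the long-term rescue did not pass against 16w +dox, where female mice were set against male controls. *Ccna2* was at 11.9, 7.06 and 11.1 FPM in 16w +dox and at 9.53, 9.89 and 10.6 FPM in 5d -dox, which lay inside that range. Its log2 fold change was 0.034 (95% interval -0.37 to 0.44). *Cdk2* was at 4.47, 3.66 and 3.90 FPM in 16w +dox and at 4.60, 5.27 and 6.05 FPM in 5d -dox, all higher, with a log2 fold change of 0.36 (95% interval 0.059 to 0.66, limma adjusted p = 0.286). *Ccne1*, at 3.44, 2.97 and 3.04 FPM against 3.08, 3.48 and 4.14 FPM, had a log2 fold change of 0.15 (95% interval -0.20 to 0.50). *Ccne2*, at 16.4, 10.2 and 15.5 FPM against 14.2, 18.02 and 19.2 FPM, had one of 0.30 (95% interval -0.10 to 0.70). For *Cdk4* it was 0.084 (95% interval -0.079 to 0.25). The lower ends of the 5 intervals lie between -0.37 and 0.059, beside fitted changes of -0.47 to -3.45 for the same genes in 12w-res against 12w+dox. The experiments differ in library preparation, weeks on dox and sex, and no test was made between them. *Mki67* was at 87.5 to 130 FPM in 16w +dox and 104 to 120 FPM in 5d -dox.

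*Cdk2* was above the 16w +dox range in every mouse off dox. It was at 4.67, 6.08, 5.61 and 4.61 FPM at 1 day and at 4.74, 4.79 and 5.93 FPM at 3 days, against 3.66 to 4.47 FPM on dox. The log2 fold changes were 0.34 at 1 day, 0.32 at 3 days and 0.36 at 5 days, with limma adjusted p of 0.285, 0.267 and 0.286, and these comparisons share their 3 control mice. *Ccne1* at 3 days was at 3.65, 4.26 and 4.59 FPM, also above all control mice, with a log2 fold change of 0.35 (adjusted p = 0.299). *Cdc25a* was at 9.63, 9.92 and 9.88 FPM in the male 16w +dox mice, at 8.86, 9.14 and 8.09 FPM in the male 3d -dox mice, at 10.03, 11.4, 11.04 and 10.7 FPM in the female 1d -dox mice and at 10.4, 10.1 and 10.8 FPM in the female 5d -dox mice. It was below the controls in the male group and above them in both female groups, with log2 fold changes of -0.17, 0.13 and 0.083, none of which passed.

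*Ccnd2* moved most among the 10 genes in the short-term mice. It was at 3.84, 3.80 and 4.57 FPM in 16w +dox, at 2.19, 2.23, 2.62 and 3.37 FPM in 1d -dox, at 8.39, 4.92 and 9.28 FPM in 3d -dox, and at 2.30, 2.78 and 2.36 FPM in 5d -dox. The male 3d -dox mice lay above the controls and the female mice of both other groups below them. The log2 fold change was -0.57 at 1 day (95% interval -0.97 to -0.17, limma adjusted p = 0.214), 0.77 at 3 days (0.34 to 1.20, adjusted p = 0.102) and -0.62 at 5 days (-1.05 to -0.18, adjusted p = 0.204). With DESeq2 on the recovered reads the rise at 3 days was 0.89 and passed (adjusted p = 0.0136), and with limma it passed without 3d -dox replicate 2 (1.03, adjusted p = 0.0273). *Ccnd1* was at 2.45, 3.85 and 2.45 FPM in 16w +dox, at 1.75, 1.56, 2.29 and 3.06 FPM in 1d -dox, at 5.65, 3.304 and 3.81 FPM in 3d -dox, and at 2.07, 2.08 and 1.46 FPM in 5d -dox. Only at 5 days did its groups not overlap, with a log2 fold change of -0.51 (adjusted p = 0.363).

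The endothelial sum, the fibroblast and mural sum and the other hormone sum were lower in the female groups than in the male groups. Among the endothelial, fibroblast and mural markers, only *Cdh5* passed as lower at 1 day against 16w +dox, and only *Cdh5* and *Pdgfrb* at 5 days. The other hormone genes summed to 22.9 to 105 FPM in 1d -dox and 25.4 to 101 FPM in 5d -dox. The endothelial sum was 22.6 to 41.5 FPM in 16w +dox and 21.6 to 39.0 FPM in 3d -dox, and 12.9 to 16.0 FPM in 1d -dox and 10.7 to 14.5 FPM in 5d -dox. The fibroblast and mural sum was 56.3 to 87.2 FPM and 52.7 to 83.8 FPM in the male groups and 29.6 to 45.1 FPM and 24.1 to 44.4 FPM in the female groups. At 3 days, where *Ccnd2* was higher, the endothelial sum and the fibroblast and mural sum overlapped those of 16w +dox. *Pomc* took 4.96% to 10.6% of the reads on genes at 3 days against 12.3% to 12.96% in 16w +dox. The other hormone genes summed to 166 to 873 FPM against 197 to 233 FPM. Their part in the levels of *Ccnd1* and *Ccnd2* was not tested.

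At 5 days against 1 day, in female mice only, the 10 log2 fold changes ran from -0.31 (*Ccna2*) to 0.10 (*Cdk6*), the smallest adjusted p was 0.785, and every gene's groups overlapped. Per kilobase, *Cdk4* and *Ccnd3* were again the most abundant in every short-term group, at 9.17 ± 0.682 and 8.91 ± 2.33 FPM per kb in 16w +dox, where they overlapped. *Ccne2* followed at 4.67 ± 1.12 FPM per kb, 2.95 ± 0.586 times the level of *Ccne1*, whereas it was 0.465 ± 0.132 times that level in 12w+dox. The order of the E-type cyclins was thus opposite in these groups of the 2 experiments. The groups differ in library preparation, weeks on dox and sex, which cannot be told apart here, and the part of each was not tested. *Ccne2* overlaps *Ints8* in RefSeq. In 16w +dox *Ints8* was at 15.02 FPM and *Ccne2* at 14.0 FPM, and in 12w+dox they were at 23.8 and 9.99 FPM. FPM is not on one scale in the 2 experiments, so these levels of *Ints8* cannot be compared between them. The other overlaps with genes of the tables are of *Ccna2* with *Exosc9*, *Ccnd3* with *Bysl* and *Cdk2* with *Pmel*. In 12w-res against 12w+dox, *Exosc9* was at 10.999 and 8.59 FPM, *Bysl* at 23.1 and 20.4 FPM and *Pmel* at 0.646 and 0.611 FPM, and none of the 3 passed the test (adjusted p = 0.124, 0.268 and 0.893).

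**Figure D5:**
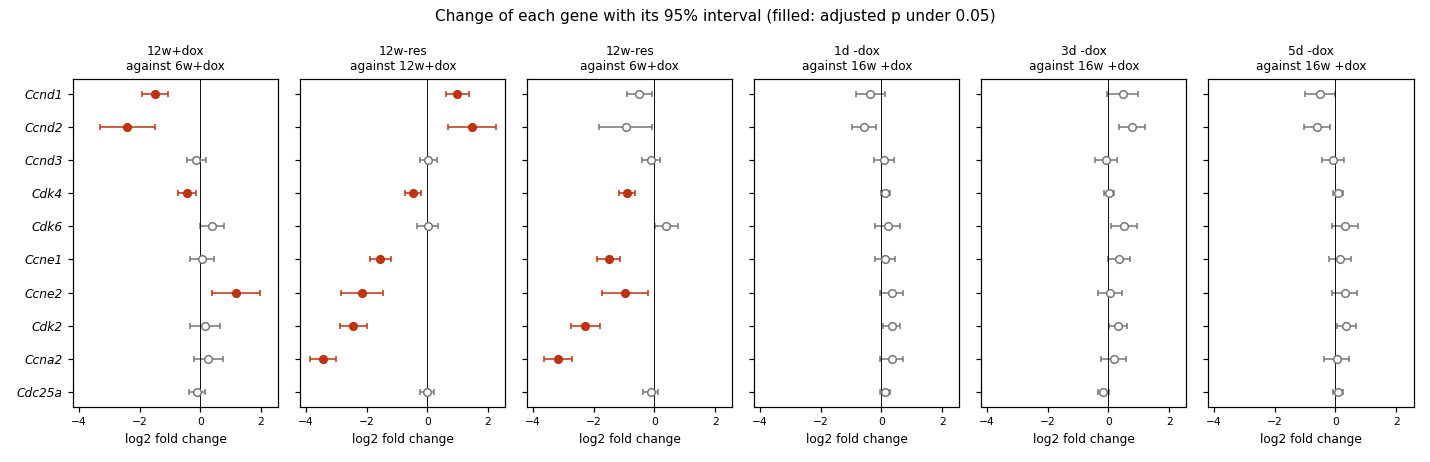
Log2 fold change (horizontal axis) with its 95% interval for each of the 10 genes in 6 comparisons; filled points passed at an adjusted p under 0.05 and open points did not. In the second panel Ccna2, Cdk2, Ccne2, Ccne1 and Cdk4 lie left of 0 and Ccnd1 and Ccnd2 right of it, and the 3 short-term panels hold open points only.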

How the data were processed

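Pituitaries of 25 sh*Rb* mice were sequenced in 2 experiments, and each mouse was placed in its group by its labels. The authors mapped reads to mm10 and counted them on RefSeq genes. They deposited a signal per gene and mouse, FPM, which is already scaled by DESeq2 size factors. Strand use and the counting tool are not given in the sources used here. Every deposited value came out as a whole read (100% within 0.1 of a read), so reads were recovered. Lines that name no gene (68.8% to 75.0% of each short-term library) were left out.

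The main test was limma 3.58.1 (run in R 4.3.3), with a trended prior and a pseudocount of 0.5 FPM before log2, all groups of an experiment in one fit and Benjamini-Hochberg adjustment over all genes that reached 10 reads in over 50% of a group's mice (15315 and 13958 genes). A gene passed at an adjusted p under 0.05. Folds on this scale understate changes of low genes. edgeR 4.0.16 and DESeq2 1.42.0 on the recovered reads, other pseudocounts, filters and scalings, sex and replicate terms and each mouse left out were alternatives, and the tests were tested on simulated data. The design had allowed for counts, and the deposited unit set the test. Genes were named by a rule: the 10 genes, *Rb1*, GFP, *Mki67*, *Pomc*, the other pathway genes called against both dox groups with the 3 largest changes in each direction, and the 2 genes most like each called gene in pattern. Genes that overlap one of the 10, and those given as examples of a list, were picked with their values in view. The 10 genes and all lists were chosen with earlier results of these data known. The labels give no batch or date. Replicates differed by more than counting error (chi-square per degree of freedom of at least 4.01).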

Additional observations from a re-analysis of the deposited data

Results flagged for a closer look

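Of 30 sets of 4 or 5 mice tested over the 10 genes, 2 had a mouse far from the rest of its group, where chance flags about 1 in 20. In 12w-res, replicate 1 had *Ccnd2* at 57.8 FPM, and the other 4 mice lay between 24.0 and 28.5 FPM (gap over range 0.867). The same mouse had the highest endothelial sum of its group, 240 FPM, and the part of those cells in this value was not tested. In 1d -dox, replicate 4 had *Cdk6* at 8.54 FPM, and the other 3 mice lay between 7.12 and 7.17 FPM (gap over range 0.964).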

How the results depend on the processing

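The count of genes called from 6 to 12 weeks on dox fell from 4 to 2, *Ccnd1* and *Ccnd2*, in female mice only, with only both groups in the fit and with sex as a covariate, and ran from 2 to 4 as each mouse was left out (2 without 12w+dox replicate 2 or 4 or 6w+dox replicate 1 or 2). In 12w-res against 12w+dox it fell from 7 to 4 in female mice only (*Ccna2*, *Ccne1*, *Ccne2* and *Cdk2*), was 7 to 7 as each mouse was left out, and with totals of reads was 8, all lower, with *Ccnd1* and *Ccnd2* lost and *Ccnd3*, *Cdc25a* and *Cdk6* gained. Against 6w+dox it was 3 with the minimum fold of the study, 8 with totals of reads, and 4 to 7 as each mouse was left out. At 3 days it was 1 (*Ccnd2*) with DESeq2, 0 to 1 as each mouse was left out (1 without 3d -dox replicate 2), and the other short-term counts were 0 to 0. The same replicate number did not mark a shared origin (correlations of same-numbered deviations -0.17 to 0.24 and -0.21 to 0.17). With the replicate block the counts were 3, 7 and 5 in the long-term and 0 in the short-term comparisons, and *Cdk4* from 6 to 12 weeks on dox was the only call lost.

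Changes of sign were seen only for genes that had not passed. From 6 to 12 weeks on dox, *Ccnd3* was at 0.19 and *Cdc25a* at 0.21 with totals of reads, *Ccne1* at -0.12 in female mice and -0.0062 with sex as a covariate, and *Cdk2* at -0.0077 and -0.010 under the same settings. In 12w-res against 12w+dox, *Cdk6* was at -0.031 with DESeq2, -0.031 and -0.018 with edgeR (RLE and TMM), -0.0086 with the replicate block and -0.63 with totals of reads, and *Ccnd3* at -0.0048 with the block and -0.63 with totals. At 5 days *Ccna2* was at -0.0021 with edgeR (TMM) and -0.042 with totals of reads. As each mouse was left out, *Ccnd3* ran from -0.34 to 0.042, -0.032 to 0.072 and -0.31 to 0.065 in the 3 long-term comparisons, *Ccne1* from -0.051 to 0.18 between the dox groups, *Cdc25a* from -0.055 to 0.046 and *Cdk6* from -0.14 to 0.17 in 12w-res against 12w+dox, and *Ccna2* from -0.19 to 0.17 at 5 days. Totals of reads moved the median of all genes by 0.29, -0.61 and -0.33 in the 3 long-term comparisons, and most of these values moved with it. Of 25 short-term values not given singly, 13 changed sign in some alternative and 0 passed. Depth limits *Ccne2* in 12w-res most. The cause of each change of call was not tested.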
